A study of Mus musculus with 6 samples.

Results

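Type I interferon-stimulated genes were followed in mouse melanoma as a set of 10 panel genes: the transcription factor Irf7, the RNA sensors Ifih1 and Ddx58, and the effectors Isg15, Isg20, Ifit2, Ifit3, Mx2, Oas2 and Oasl1. They were chosen by name, as the 10 probes that carry these symbols among 770 genes, and all 10 reached the mean raw count of at least 20 that 548 genes met. Irf7, Mx2 and Oasl1 reached it only through the control samples, since their raw counts were under 20 in every 4'-BR sample. None of the 10 differed between 4'-BR and control tumours at an adjusted p of 0.05 (edgeR quasi-likelihood test), a threshold that 6.93% of the tested genes passed. Irf7 came closest, at 12.6 ± 3.89 scaled counts in 4'-BR tumours and 22.8 ± 4.04 in control tumours (mean ± SD, n = 3 each).

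The 4'-BR group held tumours of BrafV600E/PtenNULL mice given 4'-BR (4'-bromo-resveratrol), a brominated analogue of the plant polyphenol resveratrol, at 30 mg/kg into the peritoneum on 3 days a week for 5 weeks. The control group held tumours of mice of that same genotype, and the labels do not say what these mice received. All tumours, in both groups, had been started by painting 4-hydroxy-tamoxifen on the shaved back of mice aged 10 weeks. The labels do not name the promoter that drove the recombinase. Each group had 3 samples. The labels do not say that each came from a separate mouse, so the p-values rest on the spread among samples, which may be technical.

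Type I interferons signal through a receptor made of Ifnar1 and Ifnar2, the kinases Jak1 and Tyk2, and a transcription factor complex that binds a promoter element called the interferon-stimulated response element. Cytosolic RNA sensed by the helicases that Ddx58 and Ifih1 encode (RIG-I and MDA5) leads to interferon production, and Irf7 amplifies it. The effector genes restrict viral replication, and in tumours the programme is also known from tumour cells, dendritic cells and macrophages.

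RefSeq windows of 300 bases, from 250 before to 50 after a start site (build GRCm38.p6), were matched by symbol for 8 of the 10 genes, the exceptions being Mx2 and Oas2. They were searched for the core of the response element, GAAA, any 2 bases and GAAA again, on either strand (TTTC, any 2 bases and TTTC), with overlapping matches counted separately. A match was held by windows of 4 of these 8 genes, against 3.99% of all 27025 genes and 7.98% of the 401 tested panel genes that had a window. Counted by window, it was 3.44% of all 32851. Isg15 had 3 overlapping matches, which began 78, 72 and 66 bases before the start site, and Ifit3 had 2, which began 156 and 122 bases before it. Ifih1 and Ddx58 had 1 each, which began 32 and 2 bases after the start base. The 5 windows below are those of the genes with a match and of Irf7, which had none in this window, with matches in capitals.
Isg15 (chr4:156200769-156201068, minus strand): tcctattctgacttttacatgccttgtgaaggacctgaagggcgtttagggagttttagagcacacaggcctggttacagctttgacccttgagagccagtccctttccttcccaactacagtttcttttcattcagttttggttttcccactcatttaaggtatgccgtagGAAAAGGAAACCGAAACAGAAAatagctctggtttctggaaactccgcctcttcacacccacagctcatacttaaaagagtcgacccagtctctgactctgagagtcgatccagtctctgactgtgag
Ifit3 (chr19:34583279-34583578, plus strand): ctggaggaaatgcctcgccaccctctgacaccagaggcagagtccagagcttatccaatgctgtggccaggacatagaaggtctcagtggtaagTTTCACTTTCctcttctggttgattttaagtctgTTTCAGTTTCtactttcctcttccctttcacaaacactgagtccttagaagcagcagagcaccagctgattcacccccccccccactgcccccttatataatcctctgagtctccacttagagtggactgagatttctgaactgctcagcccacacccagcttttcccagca
Ifih1 (chr2:62646206-62646505, minus strand): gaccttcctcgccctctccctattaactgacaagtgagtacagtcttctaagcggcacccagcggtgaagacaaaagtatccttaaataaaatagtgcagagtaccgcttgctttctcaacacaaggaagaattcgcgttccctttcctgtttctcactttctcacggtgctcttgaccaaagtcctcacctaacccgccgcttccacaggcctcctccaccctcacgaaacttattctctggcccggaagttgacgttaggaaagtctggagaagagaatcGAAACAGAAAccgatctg
Ddx58 (chr4:40239776-40240075, minus strand): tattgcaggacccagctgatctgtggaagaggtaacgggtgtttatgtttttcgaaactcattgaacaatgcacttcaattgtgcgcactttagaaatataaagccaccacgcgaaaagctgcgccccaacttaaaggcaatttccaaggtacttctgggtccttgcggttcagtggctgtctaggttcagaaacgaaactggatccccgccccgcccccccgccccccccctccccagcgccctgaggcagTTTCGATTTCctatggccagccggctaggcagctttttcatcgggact
Irf7 (chr7:141266375-141266674, minus strand): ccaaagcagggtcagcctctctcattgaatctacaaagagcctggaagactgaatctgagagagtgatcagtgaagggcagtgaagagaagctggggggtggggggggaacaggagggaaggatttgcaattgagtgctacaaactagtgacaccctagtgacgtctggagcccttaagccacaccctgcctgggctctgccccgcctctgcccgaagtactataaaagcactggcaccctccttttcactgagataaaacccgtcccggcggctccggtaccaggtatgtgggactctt
A match is a description of the letters and not a shown site. Isg20, Ifit2 and Oasl1 had no match in any of their windows.

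Counts are numbers of barcoded probe pairs per gene, and levels are counts divided by a sample factor from the geometric mean of the 20 housekeeping probes. Totals over the 770 genes ran from 118221 to 254862 in 4'-BR samples and from 322485 to 472402 in control samples (two-sided exact permutation p = 0.1, and no smaller value is possible with 3 samples a group), so depth and treatment cannot be told apart. The negative control probes, which have no target in mouse RNA, averaged 5.60 ± 2.03 scaled counts in 4'-BR samples and 4.63 ± 0.451 in control samples (SD, n = 3 each). Of the melanocyte markers, S100b, Mcam and Cspg4 were measured and all were tested, with summed levels of 2242 to 3658 in 4'-BR samples and 3382 to 3737 in control samples. Pigment genes such as Tyr and Mlana were not analysed here. In whole tumours, fewer cells of a type and less RNA per cell cannot be told apart.

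Irf7 encodes the factor that sustains type I interferon transcription. Its levels were 11.5, 9.33 and 16.9 scaled counts in the 4'-BR samples, against 22.3, 19.0 and 27.1 in the control samples. All 3 4'-BR samples lay below all 3 control samples. The log2 fold change, 4'-BR over control, was -0.88 (SE 0.34, 95% interval -1.63 to -0.13), with an unadjusted p of 0.0264 and an adjusted p of 0.150 in edgeR. Irf7 was thus the 1 gene of the 10 with groups that did not overlap, and the 1 with an unadjusted p under 0.05. Over all tested genes, 30.5% did not overlap between the groups (17.9% lower in 4'-BR), 23.4% had an unadjusted p under 0.05, and 6.93% passed the adjusted threshold (1.28% higher and 5.66% lower).

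The Irf7 counts were small. Raw counts were 12, 6 and 9 in the 4'-BR samples, where the highest negative probe read 6, 5 and 8, and 27, 32 and 37 in the control samples, where it read 8, 13 and 9. The exact Poisson 95% interval of the lowest, 4'-BR 2, ran from 2.20 to 13.1 counts, which covers counting error only. With each sample's mean negative count subtracted the log2 fold change was -1.41 (adjusted p = 0.120). Without each sample in turn it ran from -1.10 to -0.73, with no adjusted p under 0.05.

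**Figure D1:**
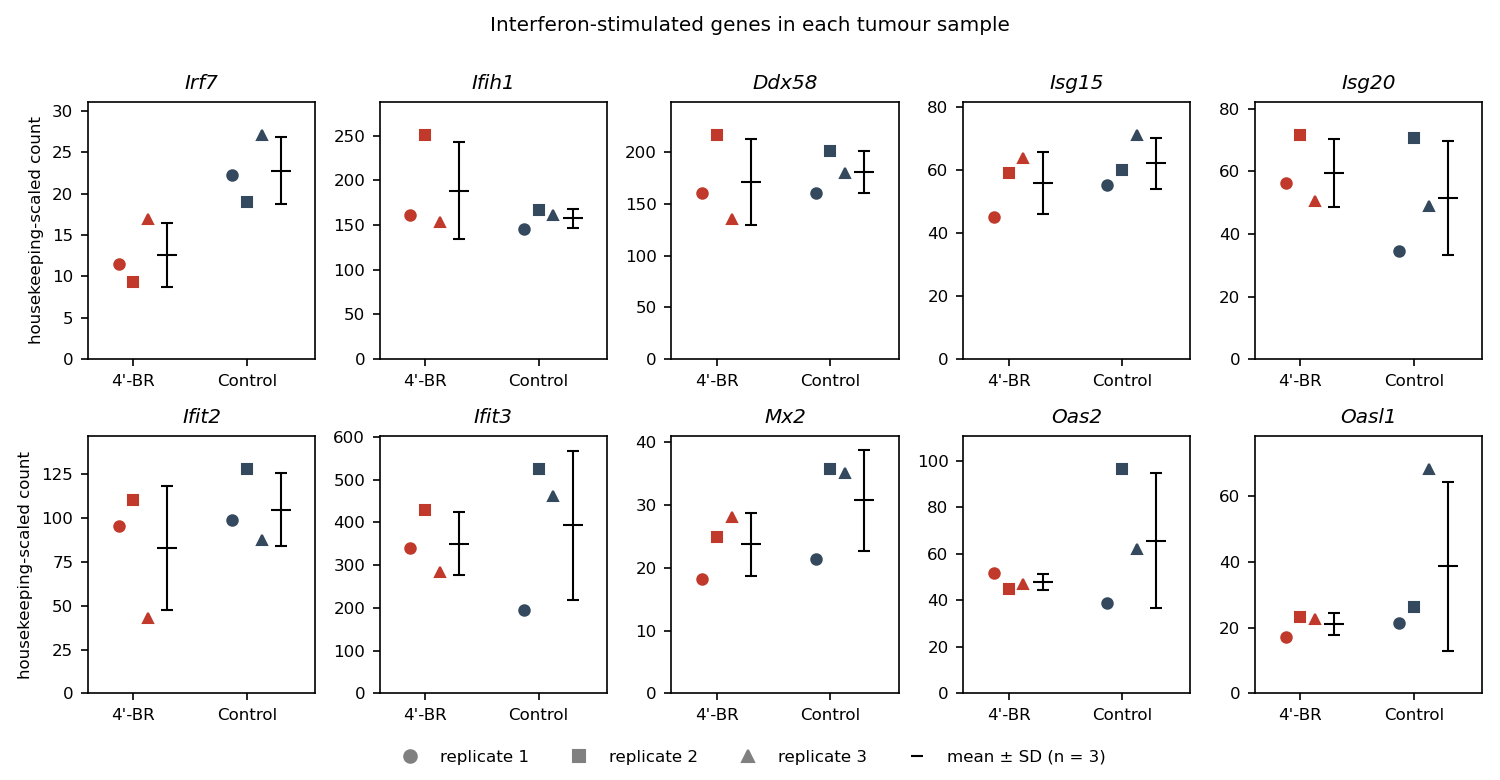
Housekeeping-scaled counts of the 10 interferon-stimulated genes (vertical axes, from 0) in 3 4'-BR samples (red, left) and 3 control samples (dark, right); symbols mark replicate numbers and black bars the mean ± SD. The groups of Irf7 do not overlap (9.33 to 16.9 against 19.0 to 27.1), while those of the other 9 genes do.

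The RNA sensors did not differ between the groups beyond their spread. Ifih1, which encodes MDA5, a sensor of long double-stranded RNA, was at 162, 250 and 154 scaled counts in 4'-BR samples, against 146, 167 and 161 in control samples. One sample, 4'-BR 2, stood above the other 5, which lay close together. Its log2 fold change was 0.25 (SE 0.21, adjusted p = 0.484), and it was at -0.00018 without 4'-BR 2. Ddx58, which encodes RIG-I, a sensor of RNA ends, was at 161, 216 and 135 in 4'-BR samples, against 161, 201 and 179 in control samples. The control values fell within the range of the 4'-BR values. Its log2 fold change was -0.08 (SE 0.21, adjusted p = 0.819), and the 95% interval allowed a level in 4'-BR tumours of 0.69 to 1.30 times that in control tumours. For Ifih1 that interval was 0.86 to 1.66 times.

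Both sensors were highest in 4'-BR 2. Across the 6 samples they were the closest pair of the 45 among the 10 genes, with a root mean square difference of 0.18 between their log2 levels, each centred on its own mean. The measure is also small for genes that vary little, and the sensors had the lowest SEs of the 10, 0.21 each.

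Isg15 encodes a ubiquitin-like protein that is attached to other proteins during the interferon response. It was at 44.9, 59.1 and 63.8 scaled counts in 4'-BR samples, against 55.2, 60.1 and 71.0 in control samples. The ranges overlapped, and the log2 fold change was -0.17 (SE 0.25, adjusted p = 0.684, interval 0.61 to 1.30 times control), at -0.02 without 4'-BR 1 and -0.27 without 4'-BR 3. Isg20, an exonuclease that degrades RNA, was at 56.4, 71.5 and 50.6 in 4'-BR samples, against 34.6, 70.8 and 49.0 in control samples. Control 1 was the lowest of the 6, and 4'-BR 2 and Control 2 were nearly level at the top. With all samples the log2 fold change was 0.20 (SE 0.31, adjusted p = 0.692), and it was -0.01 without Control 1.

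The Ifit genes encode proteins that bind foreign RNA and hinder its translation. Ifit2 was at 95.6, 110 and 43.1 scaled counts in 4'-BR samples, against 98.9, 128 and 87.8 in control samples. Only 4'-BR 3 stood below the control range, with 23 raw counts, and without it the log2 fold change was -0.03, against -0.32 with all samples (SE 0.31, adjusted p = 0.545). Ifit3 was at 339, 429 and 283 in 4'-BR samples, against 195, 524 and 461 in control samples. Here Control 1 lay below every 4'-BR sample and the other two control samples above every one. Over all samples its log2 fold change was -0.17 (SE 0.33, adjusted p = 0.752), at -0.49 without Control 1 and 0.09 without Control 2. Mice carry a near-identical copy, Ifit3b, and the sources used here do not say which copies the probe reads, so the Ifit3 count may include it.

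Mx2 and Oasl1 had the smallest mean raw counts after Irf7, 30.7 and 34.7. Mx2, an antiviral GTPase gene that the C57BL/6J reference annotates as a transcribed pseudogene, was at 18.2, 24.9 and 28.1 scaled counts in 4'-BR samples, against 21.4, 35.7 and 35.1 in control samples. Control 1 fell within the 4'-BR range and the other control samples above it. In the fit its log2 fold change was -0.41 (SE 0.32, adjusted p = 0.466), at -0.61 without Control 1 and -0.22 without 4'-BR 1.

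Oas2 encodes a synthetase of 2'-5'-linked oligoadenylates, which activate RNase L. Its levels were 51.6, 45.1 and 46.9 in 4'-BR samples, against 38.8, 96.3 and 62.2 in control samples. The 4'-BR values were close together, 1.14 times apart from lowest to highest, and the control values spread 2.49 times around them. Its log2 fold change was -0.46 (SE 0.34, adjusted p = 0.434), and it was -0.07 without Control 2.

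Oasl1, a relative of the Oas genes that in mice restrains the translation of Irf7, had the largest difference in size of the 10 in this fit. It was at 17.2, 23.3 and 22.5 in 4'-BR samples, against 21.4, 26.2 and 68.0 in control samples. One tumour, Control 3, held more than any other, 3.17 times the lowest control sample. The log2 fold change was -0.89 (SE 0.47, adjusted p = 0.288), and -0.21 without Control 3.

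**Figure D2:**
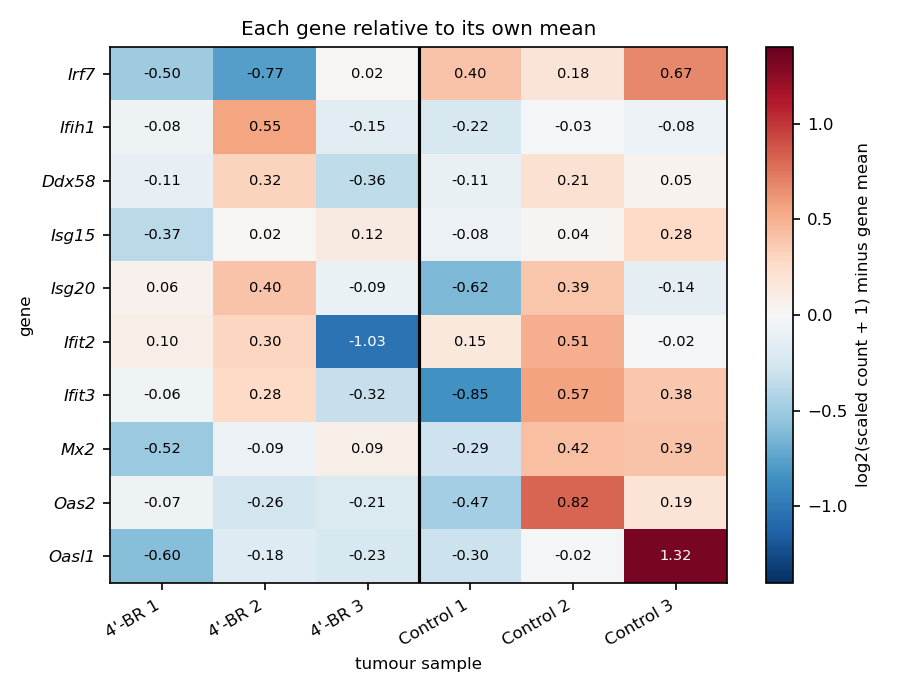
Log2(scaled count + 1) of each gene (rows) minus that gene's mean over the 6 tumour samples (columns, 4'-BR left of the line, control right). Control 1 is below the gene's mean in 8 of the 10 rows and Control 2 above it in 8, and the highest value is Oasl1 in Control 3, at 1.32.

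Levels of the 10 genes differed among the samples of a group. Counts over the whole panel did so too, beyond counting error (chi-square per degree of freedom 6.32 to 20.4). Whether the differences below are particular to the 10 genes was not tested. In Control 1, 2 of the 10 genes were above their own mean, against 8 in Control 2 and 7 in Control 3, and among 4'-BR samples the number was 2, 6 and 3 for 4'-BR 1, 2 and 3. Control 1 was the lowest control sample for 8 of the 10 genes, the exceptions being Irf7 and Ifit2, where over all tested genes it was the lowest for 53.1%. The median ratio of the highest to the lowest sample of a group was 1.53 in 4'-BR and 1.56 in control for the 10 genes, and 1.42 and 1.35 for all tested genes.

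Over the set, 8 of 10 log2 fold changes were negative, against 52.7% of all tested genes, and the median was -0.24, against -0.04. No member passed the adjusted threshold in edgeR, in DESeq2 (0 with an unadjusted p under 0.05) or in limma on log2 values (1, Irf7), where 12.6% and 1.64% of all tested genes passed in DESeq2 and limma. Scaling by the positive control probes, whose synthetic targets are added in equal amount to each reaction, changed the count: 7 of the 10 passed as lower in 4'-BR, the exceptions being Isg15, Isg20 and Ifih1, but so did 44.3% of all tested genes. The median of all genes stood at -0.67 under that scaling and that of the 10 genes at -0.92. Isg20 and Ifih1, positive with housekeeping scaling, were then at -0.47 and -0.42. Total count scaling moved the median of all genes to 0.12 and turned Ddx58 to a log2 fold change of 0.06.

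**Figure D3:**
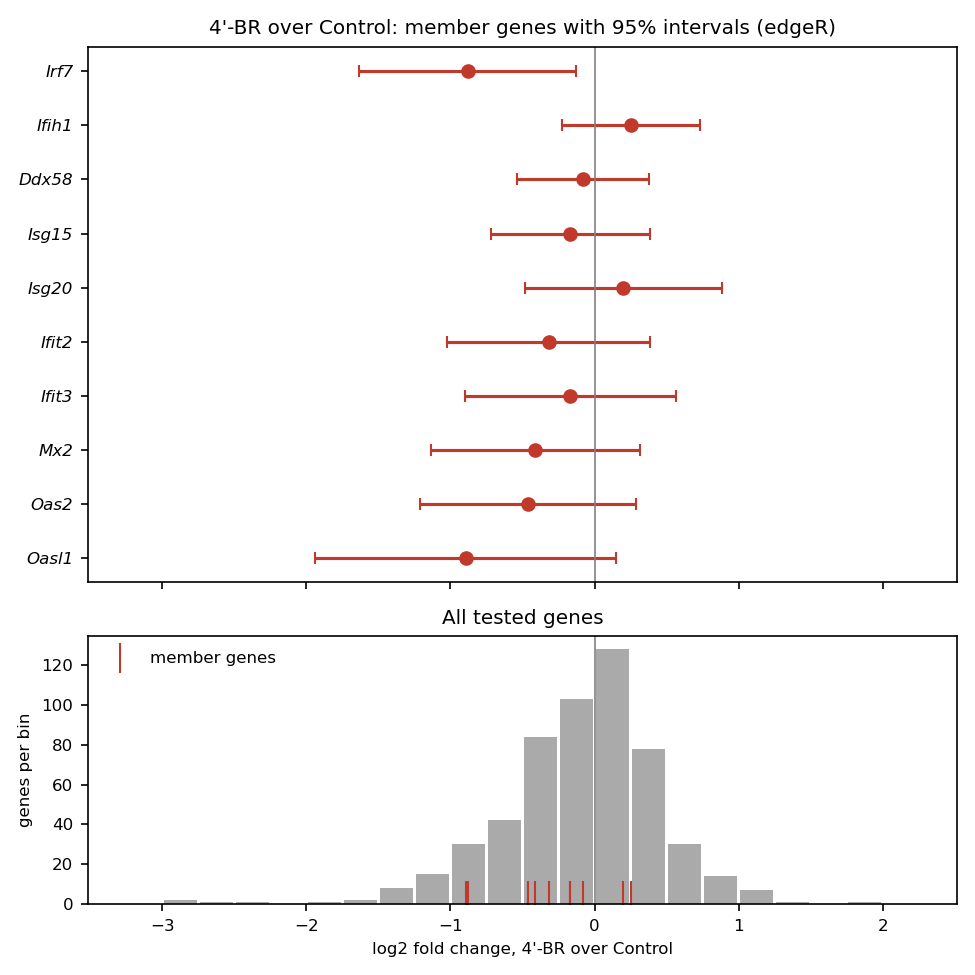
Top, log2 fold changes (horizontal axis, 4'-BR over control) of the 10 genes with 95% intervals from the edgeR fit. Bottom, the distribution of the 548 tested genes (vertical axis, genes per bin of log2 fold change) with the 10 genes as red ticks; the interval of Irf7 (-1.63 to -0.13) does not reach 0, and those of the other 9 do.

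The interferons themselves had few counts. Probes for Ifna1, Ifna2, Ifna4, Ifnb1, Ifnl2 and Ifng had mean raw counts of 2.33 to 8.33, under the count minimum, so none was tested. Of these, Ifna4 was above the highest negative probe in 4 of 6 samples and Ifna1 in 3, while the other four were above it in none. Summed levels of the 6 ligands were 31.5 to 40.4 scaled counts in 4'-BR samples, against 17.6 to 29.7 in control samples. Each sum is over 6 probes. A negative control probe averaged 3.46, 5.83 and 7.50 scaled counts in 4'-BR 1, 2 and 3, and 4.95, 4.83 and 4.11 in Control 1, 2 and 3. The part of probe background in these sums was not tested.

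None of the 6 tested genes of the receptor and its JAK-STAT pathway passed, with a median log2 fold change of 0.05. Stat2, the transducer particular to type I and III interferons, was at 138, 132 and 144 scaled counts in 4'-BR samples, against 102, 117 and 115 in control samples. Its groups did not overlap, at a log2 fold change of 0.31 (SE 0.17, adjusted p = 0.310). Stat2 was the 1 of the 6 without overlap, against 30.5% of all tested genes.

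Among 14 tested genes that lead from RNA or DNA sensing to interferon, none passed, and the median was 0.15. Tmem173, which encodes STING, the adaptor of cytosolic DNA sensing, was at 21.0, 31.1 and 30.0 in 4'-BR samples, against 36.3, 59.5 and 51.2 in control samples (log2 fold change -0.87, adjusted p = 0.117). The endosomal RNA receptor Tlr8 was at 25.8, 29.5 and 30.0 in 4'-BR samples, against 39.6, 51.7 and 39.5 in control samples (-0.63, adjusted p = 0.188). In both genes the groups did not overlap, as in 5 of the 14 and in 30.5% of all tested genes.

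Of 19 other interferon-stimulated genes that were tested, 15 had positive and 4 negative log2 fold changes, and none passed (median 0.22). Among all tested genes, 52.7% had negative ones. Tap1, the peptide transporter for MHC class I, was at 419, 362 and 422 in 4'-BR samples, against 208, 259 and 314 in control samples (0.62, SE 0.19, adjusted p = 0.0719). Ifitm2, which blocks viral entry, was at 3567, 3944 and 2534 in 4'-BR samples, against 5275, 4892 and 4867 in control samples (-0.58, SE 0.19, adjusted p = 0.0914). Groups did not overlap in 4 of the 19, against 30.5% of all tested genes. In 6 further tested stimulated genes the median was 0.16 and none passed, with the macrophage lectin Siglec1 at -0.75 (adjusted p = 0.137) and Nlrc5, an activator of MHC class I genes, at 0.36 (adjusted p = 0.305).

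**Figure D4:**
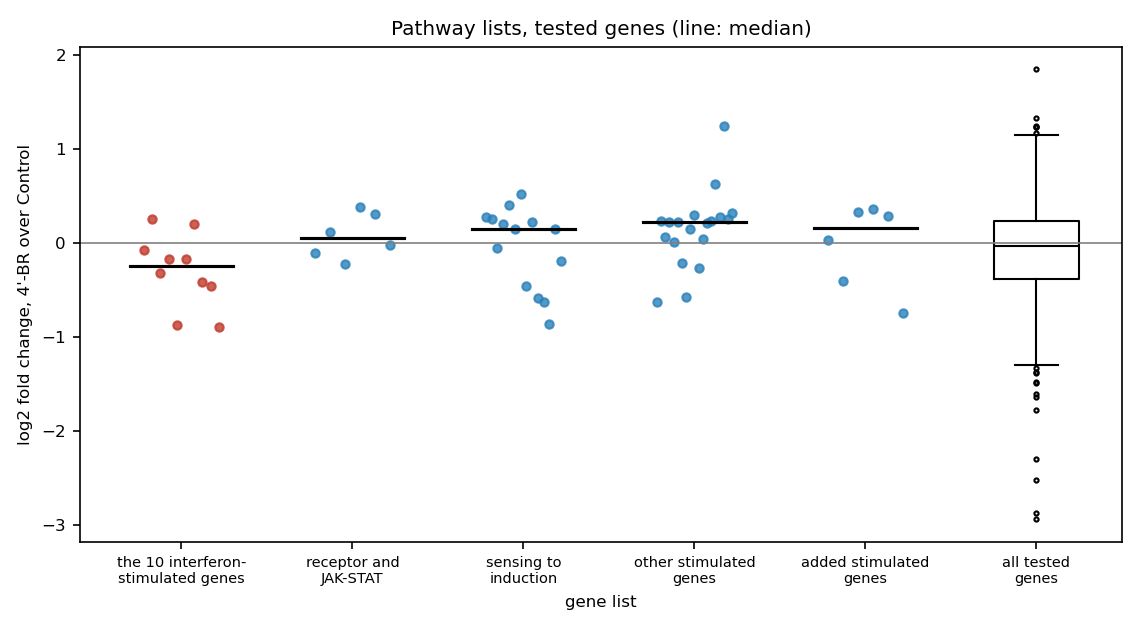
Log2 fold changes (vertical axis, 4'-BR over control) of tested genes by list, 1 point per gene with a line at each list's median, and a box plot of all 548 tested genes (box, quartiles; whiskers, 1.5 times the box). Medians are -0.24 for the 10 genes, 0.05, 0.15, 0.22 and 0.16 for the other lists and -0.04 for all tested genes.

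By root mean square difference of centred log2 levels over the 6 samples, the 5 tested genes most like Irf7 were Clec7a (0.081), Siglec1 (0.13), Cd83 (0.21), Ccl8 (0.24) and Clec4n (0.24). None is a member of the set, and the nearest member, Isg15, ranked 66 at 0.42. The Irf7 profile rests on 12, 6 and 9 raw counts in the 4'-BR samples, and how far counting error moves these ranks was not tested. Clec7a encodes the fungal receptor dectin-1, Siglec1 a sialic acid receptor of macrophages, Cd83 a marker of activated dendritic cells, Ccl8 a monocyte chemokine and Clec4n dectin-2. Siglec1 was at 42.0, 29.5 and 50.6 scaled counts in 4'-BR samples, against 58.5, 63.6 and 82.7 in control samples. Ccl8 averaged 1035 ± 116 in 4'-BR tumours and 1734 ± 208 in control tumours. It was the 1 of the 5 that passed (log2 fold change -0.74, adjusted p = 0.0387), against 6.93% of all tested genes. The 5 were picked for likeness to Irf7 over these same 6 samples, so their lower levels in 4'-BR follow from the choice.

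Summed levels of markers of several cell types differed between the groups. For comparison, 52.7% of all tested genes had negative log2 fold changes and 6.93% passed. All 10 measured macrophage markers had negative log2 fold changes (median -0.63), 4 passed (Itgam, Mrc1, C1qa and C1qb), none was at 0 in every sample, and their summed level was 1401 to 1939 scaled counts in 4'-BR samples against 2416 to 3206 in control samples. Of the plasmacytoid dendritic cell markers, 6 were measured and 4 tested, all 4 with negative values and none past the threshold. All 6 summed to 345 to 434 in 4'-BR samples and 403 to 666 in control samples, with Bst2, also an interferon-stimulated gene, at -0.63 (adjusted p = 0.165). Of the 2 under the count minimum, Ccr9 was at 17.2, 26.4 and 26.3 scaled counts in 4'-BR samples, against 15.7, 13.7 and 15.4 in control samples, so that its groups did not overlap in the other direction. Keratinocyte markers summed to 5539 to 6402 in 4'-BR samples against 4913 to 5503 in control samples, and 3 of 6 passed as higher (Itgb4, Ccl27a and F2rl1), while Cxcl14 had a log2 fold change of -0.58 (adjusted p = 0.0635) with no overlap. Fibroblast markers summed to 10660 to 15716 in 4'-BR samples against 23826 to 32913 in control samples, with 7 of 7 negative (median -0.93) and 5 past the threshold (Col1a1, Col3a1, Fn1, Fap and Ccl11). Of 6 measured neutrophil markers, the 3 tested were negative (median -1.19), and S100a8 passed. The other 3, under the count minimum, went the other way in the fit with no minimum: Camp 0.37, Ltf 1.55 and Mpo 0.06. The Ltf groups did not overlap. The 3 tested of 8 measured NK cell markers were positive (median 0.68), and Xcl1 passed as higher. None of the 6 tested of 10 measured T cell markers passed (4 positive and 2 negative, median 0.63). The 6 endothelial markers had no gene past the threshold either (1 positive and 5 negative, median -0.16). The part of these cell types in the levels of Irf7 or of the other 9 genes was not tested.

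**Figure D5:**
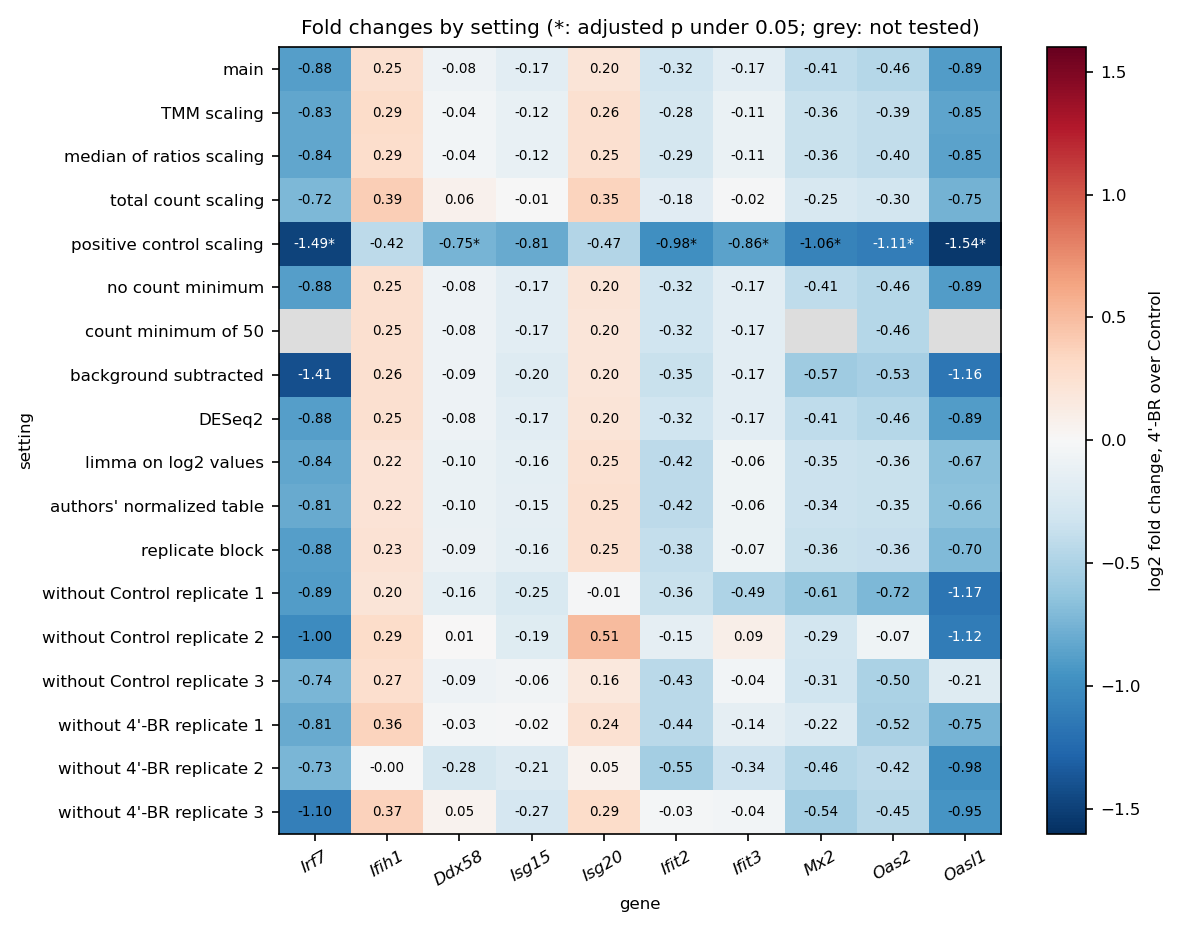
Log2 fold change (colour and printed value, 4'-BR over control) of each of the 10 genes (columns) in the reported fit and under 17 other settings (rows); an asterisk marks an adjusted p under 0.05 and grey a gene under the count minimum. Asterisks appear in the row of positive control scaling alone, on 7 genes. Irf7, Isg15, Ifit2, Mx2, Oas2 and Oasl1 are negative in each row in which they were tested.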

How the data were processed

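Tumour RNA of 3 4'-BR and 3 control samples was measured on the nCounter Mouse PanCancer Immune Profiling Panel, per the labels' protocols. The deposited raw table holds barcode counts per probe with no scaling, per the file headers (750 endogenous, 20 housekeeping, 6 positive and 8 negative probes). A further deposited table for the whole series gives a score, normalized by the authors, for each gene. It was checked against the raw counts: with 1 exception, every value lay within 1 of the count times a housekeeping factor of its sample. The labels name no software for either table.

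Groups and replicate numbers came from the sample titles. Raw counts of all genes with a mean of at least 20 were fitted with edgeR 4.0.16 in R 4.3.3 (glmQLFit and glmQLFTest, two-sided), scaled by the housekeeping geometric mean, with Benjamini-Hochberg adjustment over the 548 genes tested and a threshold of 0.05. SEs were derived from the F statistic and 95% intervals from the SE and the t distribution. DESeq2 1.42.0, limma 3.58.1 (log2 of scaled count + 1, and the deposited scores), other scalings, count minimums, background subtraction and left-out samples were alternatives. Of these fits, only the edgeR fit with housekeeping scaling was tested on simulated data. Samples of a group were further apart than counting error allows (chi-square per degree of freedom 6.32 to 20.4).

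The members and lists were chosen with earlier results of these data known, and 7 stimulated genes (Cmpk2, Ddx60, Epsti1, Herc6, Siglec1, Pml and Nlrc5) were added after the files were read. Named were all members, from each list the genes past the threshold and the 2 of lowest p, and the 5 genes of smallest root mean square difference from Irf7. The values of 1 gene that this rule names are not reported here. Symbols of all 10 members, and 9 of their 10 accessions, matched the RefSeq table of GRCm38.p6.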

Additional observations from a re-analysis of the deposited data

How the results depend on the processing

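No member passed the threshold under any of 16 of the 17 other settings, and 7 passed with positive control scaling, as described above. Over all tested genes, 38 passed in the reported fit, against 60 with total count scaling (30 higher and 30 lower, against 7 and 31 in the reported fit), 244 with positive control scaling, 69 in DESeq2, and 9 in limma on log2 values and 9 on the deposited scores. Leaving out single samples gave 0 to 35: 1 without Control 1, 7 without Control 2, 35 without Control 3, 1 without 4'-BR 3, and in edgeR 0 without 4'-BR 1 (107 genes at an unadjusted p under 0.05) or 4'-BR 2 (116). TMM and median of ratios scaling gave 19 higher with 36 and 37 lower. Signs turned in Ddx58 with total count scaling (0.063), and in Isg20 (-0.47) and Ifih1 (-0.42) with positive control scaling. Without single samples Isg20 ran from -0.013 to 0.51, Ifit3 from -0.49 to 0.095, Ddx58 from -0.28 to 0.053 and Ifih1 from -0.00018 to 0.37, while Isg15 (-0.27 to -0.02), Ifit2 (-0.55 to -0.03), Mx2 (-0.61 to -0.22), Oas2 (-0.72 to -0.07), Oasl1 (-1.17 to -0.21) and Irf7 stayed negative. The causes were not tested. With the replicate number as a replicate block, 30 genes and none of the 10 passed (Irf7 -0.88, adjusted p = 0.144). Whether the numbers pair the samples was not settled. Same-numbered samples correlated in their deviations from the group means at -0.08, 0.08 and 0.21. Differently numbered samples ran from -0.31 to 0.22, a range that holds those values, so the correlations cannot decide it. Irf7, Mx2 and Oasl1 had no value at a minimum of 50 counts, and their low counts limit what the comparison can resolve.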
